A study of Mus musculus with 48 samples.

Results

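Newly made RNA was compared between a late and an early window of a serum time course in control mouse fibroblasts. The late window held the libraries of 40, 42, 44 and 46 h after serum and the early window those of 24, 26, 28 and 30 h, so that 8 of the 48 libraries of the series were compared, 4 against 4. RNA synthesis was read from introns, and the genes were those with a mean intron RPKM (reads by length of the introns and by the depth of the library) of at least 0.1 over these 8 libraries, which held for 10653 of the 11313 genes listed. The rule used the mean level and the clock time and not the difference between the windows.

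The cells were NIH 3T3, an immortalised line of mouse embryonic fibroblasts that keeps a circadian clock in culture. The line studied here carried a control hairpin (shCTRL), and the other line of the series carried a hairpin against Bmal1, which the files list as Arntl (shBmal1). Cultures of both lines were brought into phase with 50% horse serum for 2 h. New RNA had taken up the uridine analogue 4-thiouridine (4sU) and was recovered through biotin on streptavidin, and total RNA was sequenced from the same cultures. Each line was 1 stable line with 1 library per time point and RNA type, so the time points of a window stand in for replicates. All p-values therefore measure the spread between single libraries 2 h apart, and a change within a window counts as spread. The windows differ in the phase of the clock as well as in time since serum, and these cannot be told apart. Below, rose and fell mean higher or lower in the late window and not a lasting change.

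Introns are removed and broken down soon after a gene is copied, so intron reads in 4sU RNA follow the rate of synthesis more closely than exon reads, which also follow the RNA's lifetime. The circadian clock of a fibroblast is a feedback loop: BMAL1 and CLOCK switch on the Per, Cry and Rev-erb (Nr1d1, Nr1d2) genes, whose proteins then hold back BMAL1 and CLOCK or the Bmal1 gene itself. Serum both sets this clock and moves resting cells into the cell cycle, in which the genes of DNA replication are followed by those of mitosis.

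Depth was 60487079 to 71451107 reads in the 8 compared libraries and 53931845 to 76260143 in the matching total RNA libraries. The scaling factors of the early and late 4sU libraries overlapped (1.105 to 1.244 and 1.138 to 1.233). Of 13 fibroblast markers 11 were tested, and none passed the test in 4sU intron RNA. Their summed level was 711 to 854 RPKM early and 520 to 642 RPKM late, of which the intermediate filament gene Vim made up a mean of 699 and 524 RPKM. Most markers of other cell types were not among the genes listed and so had no value. Listed were 1 of 7 endothelial, 1 of 9 epithelial, 2 of 8 muscle, 1 of 7 neural, 2 of 7 adipocyte and 4 of 10 leukocyte markers. The leukocyte ones summed to 4.35 to 6.71 RPKM early and 3.49 to 4.91 RPKM late. Of the listed markers, 0 endothelial, 1 epithelial, 1 muscle, 1 neural, 2 adipocyte and 2 leukocyte ones were above the minimum. Among these, Krt14 (-0.76, limma adjusted p = 0.0754), Mymx (-0.91, adjusted p = 0.146) and Cd68 (-0.46, adjusted p = 0.0646) had log2 differences below 0. The other leukocyte marker was at -0.30 and the neural one at -0.17. The 2 adipocyte markers went opposite ways, at -0.17 and 0.46. None of these markers passed in 4sU intron RNA, and their part in the results below was not tested. Arntl, the target of the other line's hairpin, had deposited exon values in total RNA of 1.29 to 17.2 RPKM (median 8.43, 12 libraries) in shCTRL and 2.36 to 5.00 RPKM (median 4.00, 12 libraries) in shBmal1.

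A small share of the genes passed the test of late against early synthesis. This is the share detected with 4 libraries a window and not the share that changed. Of the 10653 genes, 80 were higher late (0.751%) and 123 lower late (1.15%) by limma at a Benjamini-Hochberg adjusted p under 0.05, and 1626 had an unadjusted p under 0.05. Genes of mitosis made up many of the falls, with 27 of the 123 from the list of G2/M genes described below, and the clock gene Cry1 fell most among well-counted genes. The rises included the clock gene Nr1d1, the collagen cross-linking enzyme Lox and the complement genes C3 and C4b. A log2 difference of at least 0.5 (1.41-fold) was reached by 38 of the higher and 90 of the lower genes. For 679 genes all 4 late values lay above all 4 early ones (6.37%) and for 517 all lay below (4.85%); the 203 genes that passed the test were all among these. The scaling centres each library on its median ratio, so a change shared by most genes would not be seen. The median log2 difference over all genes was thus near 0 (0.01). On the RPKM as deposited, with no further scaling, it was -0.03 and the split became 30 higher and 157 lower, whereas scaling by the upper quartile gave 58 and 99.

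The number of calls depended on single libraries. Without the 28 h library 45 genes passed, and without those of 24, 40, 42, 44 or 46 h it was 70, 101, 67, 69 or 52, whereas without the 30 h library 304 passed, 138 of them higher. Just inside the threshold were 1810014B01Rik (adjusted p = 0.0462), Spc25 (0.0480) and Ddx11 (0.0485), and just outside it Zfp423 (0.05003), Cip2a (0.0509) and Lin9 (0.0509).

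The most uniform group was that of G2/M and mitosis, the genes whose proteins condense, align and separate the chromosomes. Of 36 members tested, 27 fell, 0 rose and 9 did not pass, with a median log2 difference of -0.62 against 0.01 over all genes, and all 36 were below 0 on every scaling tried. In 33 of the 36 the late values lay wholly below the early ones. Among those that fell were the mitotic kinase Cdk1 (4.03 to 2.50 RPKM, log2 difference -0.69 ± 0.0840 SE), the kinases Plk1 (-0.65 ± 0.126) and Aurka (-0.71 ± 0.113), the centromere histone Cenpa (-0.75 ± 0.136) and the spindle factor Tpx2 (-0.61 ± 0.0857). Ccnb2 (-0.20, limma adjusted p = 0.518) and the proliferation marker Mki67 (-0.29, adjusted p = 0.163) did not pass. With single libraries left out, 8 (without 28 h or 46 h) to 31 (without 30 h) members passed. Only 1 passed with the windows set at 26 to 30 h and 42 to 46 h, where the median was -0.69 and all 36 members were below 0. With a block for the position within the window 4 passed. That block is balanced, so it leaves each log2 difference as it was and changes only its error. In bulk RNA, fewer cells in mitosis and less synthesis per cell cannot be told apart.

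Ccnb1, which encodes the cyclin B1 that drives entry into mitosis, is on chromosome 13 from 100778739 to 100786486 (GRCm38.p6). Its 4sU intron level was 1.07, 1.06, 1.13 and 1.05 RPKM at 24, 26, 28 and 30 h and 0.689, 0.600, 0.484 and 0.494 RPKM at 40, 42, 44 and 46 h. The early libraries were nearly level, and each late library lay well below them. The log2 difference was -0.92 ± 0.107 (limma adjusted p = 0.00787), a 1.90-fold fall from 1.08 ± 0.0343 to 0.566 ± 0.0969 RPKM (SD, n = 4), and it passed under all 20 other settings run. Gas2l3, which binds actin filaments and microtubules, was 0.642, 0.671, 0.726 and 0.636 RPKM early and 0.411, 0.344, 0.292 and 0.284 RPKM late. Here too the windows did not overlap, and the lowest values were the last ones (log2 difference -0.98 ± 0.111, limma adjusted p = 0.00787).

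Further mitotic genes were among the 12 largest falls. Pttg1, the securin that inhibits separase, fell from 1.16 ± 0.101 to 0.590 ± 0.0698 RPKM (SD, n = 4; log2 difference -0.95 ± 0.0970). Ube2c, the ubiquitin-conjugating enzyme of the anaphase-promoting complex, fell by 0.91 ± 0.115 on the log2 scale, and Cdc20, that complex's activator, by 0.83 ± 0.149. Cdc20 shares its locus with part of Elovl1 in the annotation, and whether the strand was used in counting is not given, so its value is uncertain to that extent. Ckap2 and Fam83d, both spindle proteins, fell by 0.87 ± 0.101 and 0.81 ± 0.105, and the checkpoint kinase Bub1b, named from the G2/M list, by 0.88 ± 0.105. The limma adjusted p of these 6 genes was 0.00787 to 0.0208.

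Promoters of 3 of these genes are shown because motifs known from mitotic genes recur in them. They are the 250 bases before the start site from RefSeq (GRCm38.p6), given 5′ to 3′ on the strand of the gene, with matches to CCAAT (or its complement ATTGG) and to TTTGAA (or TTCAAA), the core of the cell-cycle homology region, in capitals. Ccnb1 covers chr13:100786487-100786736 (minus strand), Cdc20 chr4:118437344-118437593 (minus strand) and Ube2c chr2:164769679-164769928 (plus strand).
Ccnb1: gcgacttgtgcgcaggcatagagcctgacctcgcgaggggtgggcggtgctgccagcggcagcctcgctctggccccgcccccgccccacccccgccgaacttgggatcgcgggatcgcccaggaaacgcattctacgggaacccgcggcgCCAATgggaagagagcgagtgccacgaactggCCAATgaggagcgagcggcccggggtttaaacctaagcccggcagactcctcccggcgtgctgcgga
Cdc20: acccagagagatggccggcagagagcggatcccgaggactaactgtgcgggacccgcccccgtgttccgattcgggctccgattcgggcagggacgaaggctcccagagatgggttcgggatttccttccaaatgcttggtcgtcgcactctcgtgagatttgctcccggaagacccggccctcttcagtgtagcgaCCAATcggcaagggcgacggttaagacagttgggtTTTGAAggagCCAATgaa
Ube2c: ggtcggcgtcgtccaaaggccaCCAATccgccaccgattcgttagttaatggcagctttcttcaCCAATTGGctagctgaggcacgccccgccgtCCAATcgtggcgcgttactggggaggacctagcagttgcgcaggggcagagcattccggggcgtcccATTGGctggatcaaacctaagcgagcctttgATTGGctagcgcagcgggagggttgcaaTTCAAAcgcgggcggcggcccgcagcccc
Ccnb1 holds 2 CCAAT matches, 99 and 67 bases before the start (first base of each), and Cdc20 holds one TTTGAA match 18 bases before it between 2 CCAAT matches. Ube2c holds one TTCAAA match 29 bases before the start and 6 matches of CCAAT on either strand, 2 of which overlap. Over 300 bases (250 before to 50 after the start, both strands), TTTGAA was found in 23 of 30 promoters of the G2/M list (76.7%), in 50 of 99 of the genes lower late (50.5%), in 10 of 54 of those higher late (18.5%) and in 1142 of 8191 of all genes tested (13.9%). CCAAT was found in 76.7%, 65.7%, 51.9% and 43.5% of the same promoters. Both motifs were chosen after the falling genes had been seen, and a match describes letters in the window and not a bound factor.

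Genes of G1/S and DNA replication moved less. Of 37 tested, 2 fell and 0 rose, with a median log2 difference of -0.17, and 33 were below 0. Mcm3, a subunit of the replicative helicase, was 0.699 to 0.793 RPKM early and 0.539 to 0.599 RPKM late, and Cdc45, which loads onto that helicase, was 0.552 to 0.598 and 0.418 to 0.451 RPKM. Both ranges were separate, with log2 differences of -0.41 ± 0.0708 and -0.39 ± 0.0649 (limma adjusted p = 0.0188 and 0.0163). Cdt1 (-0.39), Mcm7 (-0.30) and Ccnd1 (0.21) did not pass.

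In the core clock list 1 of 17 genes tested rose and 1 fell, and the other 15 did not pass. Cry1, a repressor of BMAL1 and CLOCK on chromosome 10 from 85131700 to 85185054, had 4sU intron levels of 0.191, 0.287, 0.287 and 0.211 RPKM early and 0.0574, 0.0562, 0.0835 and 0.114 RPKM late. All late values lay below the lowest early value, the lowest being those of 40 and 42 h. The fall was 1.45 ± 0.196 on the log2 scale (2.74-fold, limma adjusted p = 0.00946) and rested on 205 to 1254 intron reads per library. It passed under 18 of 19 other settings run and missed when the windows were narrowed to 26 to 30 h against 42 to 46 h (adjusted p = 0.0541).

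Nr1d1, the repressor REV-ERBα that acts on the Bmal1 gene, moved the other way. Its levels were 5.49, 2.92, 2.77 and 3.56 RPKM early and 6.30, 7.45, 7.09 and 7.12 RPKM late. The late values all lay above the early ones, and the 24 h library stood closest to them. The log2 difference was 0.97 ± 0.186 (1.96-fold, limma adjusted p = 0.0279), from 3.69 ± 1.25 to 6.99 ± 0.489 RPKM (SD, n = 4). It no longer passed when any library other than that of 24 h was left out (adjusted p = 0.0588 to 0.0884). Nr1d1 on chromosome 11 (98767932 to 98775377) overlaps Thra in the annotation, so part of its reads may belong to that gene.

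Other clock genes had values that ran through the windows. Arntl was 0.198, 0.323, 0.472 and 0.847 RPKM early and 0.725, 0.449, 0.253 and 0.241 RPKM late, and its middle libraries (32 to 38 h) averaged 1.03 RPKM. Its early values thus went up with time, its late values went down, and the window means of 0.460 and 0.417 RPKM differed by -0.09 ± 0.492 (log2, limma adjusted p = 0.950). Per2 was 0.799, 0.845, 0.579 and 0.417 RPKM early and 0.189, 0.306, 0.370 and 0.537 RPKM late. The ranges overlapped, and its log2 difference of -0.91 ± 0.304 did not pass (adjusted p = 0.197). Nr1d2 ran from 1.66 down to 0.423 RPKM in the early window and from 0.863 up to 1.62 RPKM in the late one (0.50 ± 0.412, adjusted p = 0.630). Per1 (-0.22), Per3 (-0.31), Ciart (-0.34), Bhlhe40 (-0.17) and Bhlhe41 (-0.19) had like courses or wide spreads, with adjusted p of 0.580 to 0.769. Clock (0.10), Rora (0.28), Cry2 (-0.35) and the kinase and ubiquitin ligase genes Csnk1d (0.03), Csnk1e (-0.10) and Btrc (0.14) did not pass either.

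**Figure D1:**
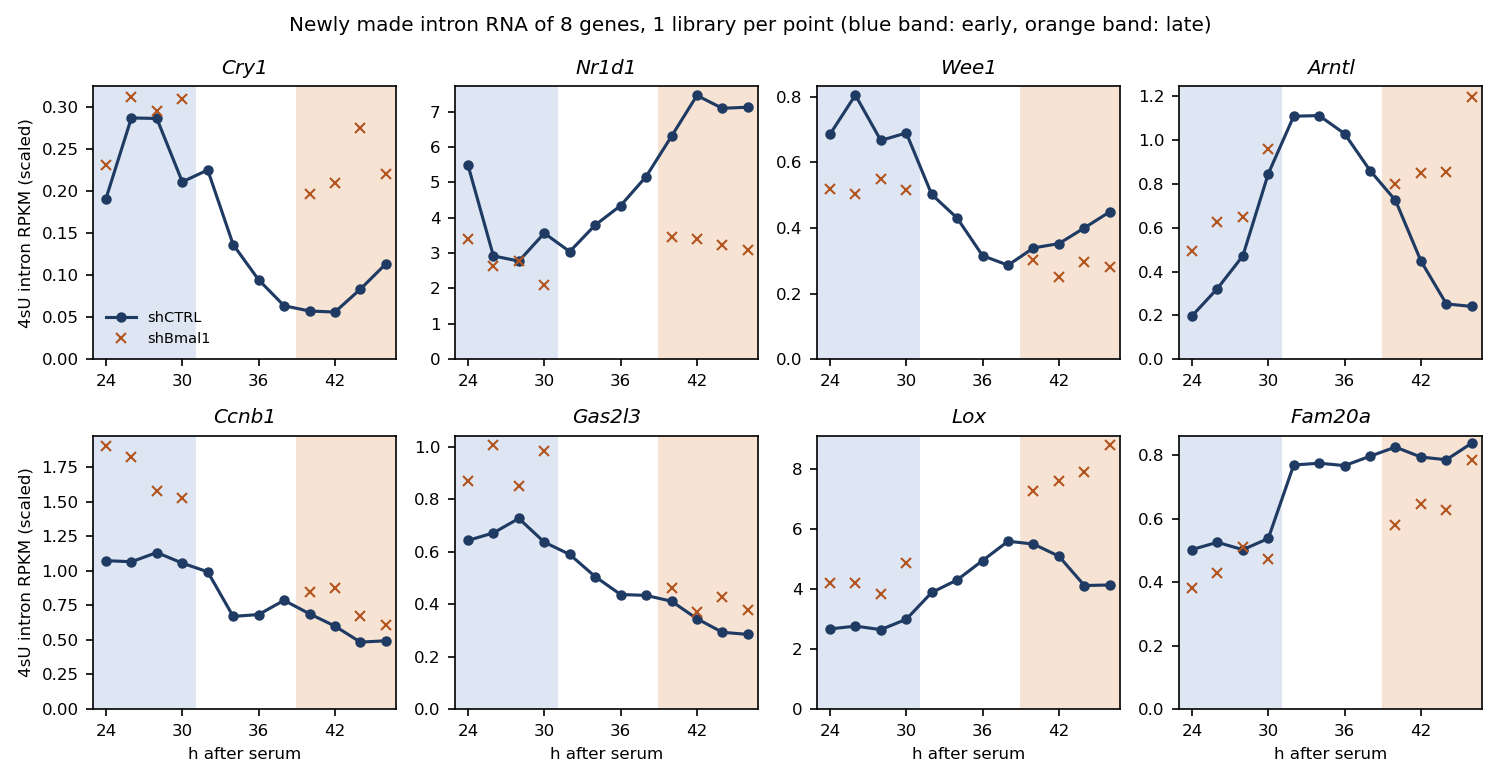
Scaled 4sU intron RPKM (vertical axis, from 0) against h after serum for 8 genes, 1 library per point. Dark circles joined by lines are shCTRL at 12 time points, crosses are shBmal1 at the 8 time points of the windows, and the shaded bands mark the early and late windows. Cry1 and Ccnb1 lie lower late than early in shCTRL, Nr1d1, Lox and Fam20a higher, and Arntl peaks between the windows.

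Of 19 clock output genes tested, 2 fell and 0 rose. Wee1, the kinase that holds back entry into mitosis and a known target of CLOCK, was 0.685, 0.804, 0.666 and 0.689 RPKM early and 0.339, 0.352, 0.400 and 0.449 RPKM late. The windows were separate, and the lowest value of the course was 0.286 RPKM at 38 h (log2 difference -0.86 ± 0.0999, limma adjusted p = 0.00787). Tsc22d3, a glucocorticoid-induced gene, fell from 0.361 ± 0.0371 to 0.247 ± 0.0190 RPKM (SD, n = 4; -0.51 ± 0.0933, adjusted p = 0.0228). Its call held in 11 of 19 alternatives (adjusted p up to 0.219). In shBmal1 the late minus early differences were -0.84 for Wee1 and 0.03 for Tsc22d3. Neither was called as differing between the lines (limma adjusted p = 0.988 and 0.263). The output genes Dbp (0.33, adjusted p = 0.817) and Tef (-0.23, adjusted p = 0.815) did not pass.

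The Cry1 promoter is shown because it holds the E-box CACGTG that BMAL1 and CLOCK are known to bind, in capitals here 60 to 55 bases before the start (chr10:85185055-85185304, minus strand, RefSeq on GRCm38.p6).
Cry1: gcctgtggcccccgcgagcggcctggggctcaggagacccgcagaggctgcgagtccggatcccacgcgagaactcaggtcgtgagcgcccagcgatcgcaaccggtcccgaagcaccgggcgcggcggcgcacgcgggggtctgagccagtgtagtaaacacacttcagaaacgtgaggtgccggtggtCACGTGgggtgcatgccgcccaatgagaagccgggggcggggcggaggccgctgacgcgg
Over the 300-base window and both strands, CACGTG was found in 7 of 54 promoters of genes higher late (13.0%), 4 of 99 of those lower late (4.04%) and 1022 of 8191 of all genes tested (12.5%). The D-box TTANGTAA was found in 1.85%, 6.06% and 1.89%, the ROR element TAGGTCA in 0%, 4.04% and 2.19%, the cyclic AMP element TGACGTCA in 0%, 4.04% and 3.71%, and the CArG box in 3.70%, 2.02% and 1.43%. These shares rest on 0 to 7 promoters in the higher and lower groups.

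Among the genes that rose were several of the extracellular matrix and of secreted proteins. Lox, the lysyl oxidase that cross-links collagen, was 2.67, 2.77, 2.65 and 3.00 RPKM early and 5.50, 5.10, 4.12 and 4.14 RPKM late. Every late library was above every early one, and the course peaked at 38 h (5.60 RPKM). The log2 difference was 0.75 ± 0.105 (1.69-fold, limma adjusted p = 0.00991). Gm41724, a transcript annotated beside Lox on chromosome 18 (52563614 to 52577324, Lox 52516060 to 52529867), rose by 0.80 ± 0.108 with the same late maximum. Prelp, a leucine-rich proteoglycan of the matrix, rose from 0.462 ± 0.0865 to 0.879 ± 0.0551 RPKM (SD, n = 4; 0.92 ± 0.117). The aggrecanase Adamts5 rose by 0.62 ± 0.107.

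The complement genes C4b and C3 rose by 0.89 ± 0.149 and 0.71 ± 0.153 (limma adjusted p = 0.0174 and 0.0462). C3 was 26.3, 27.3, 32.6 and 43.5 RPKM early and 55.6, 54.2, 46.1 and 52.6 RPKM late. Its early window itself ran upward to a value close to the lowest late one, and the call was lost when any library but that of 30 h was left out (adjusted p = 0.0700 to 0.135). Vgll3, a partner of TEAD factors, was 0.148 to 0.165 RPKM early and 0.231 to 0.287 RPKM late (0.62 ± 0.0880). These ranges were wide apart. Fam20a, a pseudokinase of the secretory pathway, was 0.503, 0.526, 0.503 and 0.538 RPKM early, 0.768 to 0.797 RPKM in the middle window and 0.826, 0.795, 0.786 and 0.839 RPKM late. Its step thus lay between 30 and 32 h, and its log2 difference was 0.63 ± 0.0618 (limma adjusted p = 0.00787). Gm15851 (0.98 ± 0.125) and 1810059H22Rik (0.65 ± 0.102), which carry provisional Gm and Rik symbols, were also among the 12 largest rises. The values of Fam20a, Adamts5, Igf2, Adamts14, Arntl, Timeless and Pvrig carry the same doubt as that of Nr1d1, since each overlaps another annotated transcript, and C4b has a near-identical copy, C4a. Of the 80 genes that rose, 16 had provisional Gm or Rik symbols, against 6 of the 123 that fell and 1009 of all 10653.

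Outside the lists, 86 of the 123 falling and 75 of the 80 rising genes remained, and those named here were chosen after their values were seen. Further falls of dividing cells were Tacc3, which stabilises spindle microtubules (1.73 ± 0.0677 to 1.08 ± 0.137 RPKM, SD, n = 4), the checkpoint gene Mad2l1 (0.841 ± 0.0961 to 0.572 ± 0.0705 RPKM), Incenp of the chromosomal passenger complex (0.971 ± 0.0332 to 0.670 ± 0.0628 RPKM) and the DNA ligase Lig1 (0.392 ± 0.00815 to 0.299 ± 0.00851 RPKM). Timeless, a protein of the replication fork, was 0.336 to 0.360 RPKM early and 0.208 to 0.266 RPKM late. Its windows were far apart, and the middle values were already at the late level (log2 difference -0.53 ± 0.0906, limma adjusted p = 0.0182).

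Rising genes outside the lists included growth factors and signalling genes. Igf2, insulin-like growth factor 2, was 3.62 to 4.38 RPKM early and 5.48 to 6.02 RPKM late. The late libraries all stood above the early ones, with the middle values (4.28 to 5.22 RPKM) in between (0.51 ± 0.0802, limma adjusted p = 0.0149). Fgf10, a growth factor of the mesenchyme, rose by 0.55 ± 0.0806, and Irs1, the adaptor of the insulin and IGF receptors, by 0.56 ± 0.0896. Spp1 (osteopontin), Ccn4 (a matricellular protein) and Runx2 (a bone-forming transcription factor) rose by 0.50 ± 0.0966, 0.52 ± 0.0888 and 0.39 ± 0.0793. In shBmal1 the late minus early differences of these 6 genes were -0.05 for Igf2 and between 0.22 and 0.71 for the others, none of which was called as differing between the lines.

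As groups, these matrix and growth-related lists showed few calls. In the extracellular matrix list 1 of 25 genes rose (Lox) and 0 fell, with a median of 0.15. Thbs2 (0.44, limma adjusted p = 0.129), Dcn (0.39, adjusted p = 0.0970) and Col5a2 (0.34, adjusted p = 0.190) did not pass. The integrin and adhesion (17 genes, median 0.14), actin and SRF (17 genes, 0.16) and YAP target lists (11 genes, 0.15) had 0 calls in either direction. Of 26 genes of TGF-beta and BMP signalling 1 fell and 0 rose (median 0.12). This was Id3, an inhibitor of basic helix-loop-helix factors, at 2.53 to 3.00 RPKM early and 1.06 to 1.71 RPKM late (-0.89 ± 0.140, limma adjusted p = 0.0149).

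**Figure D2:**
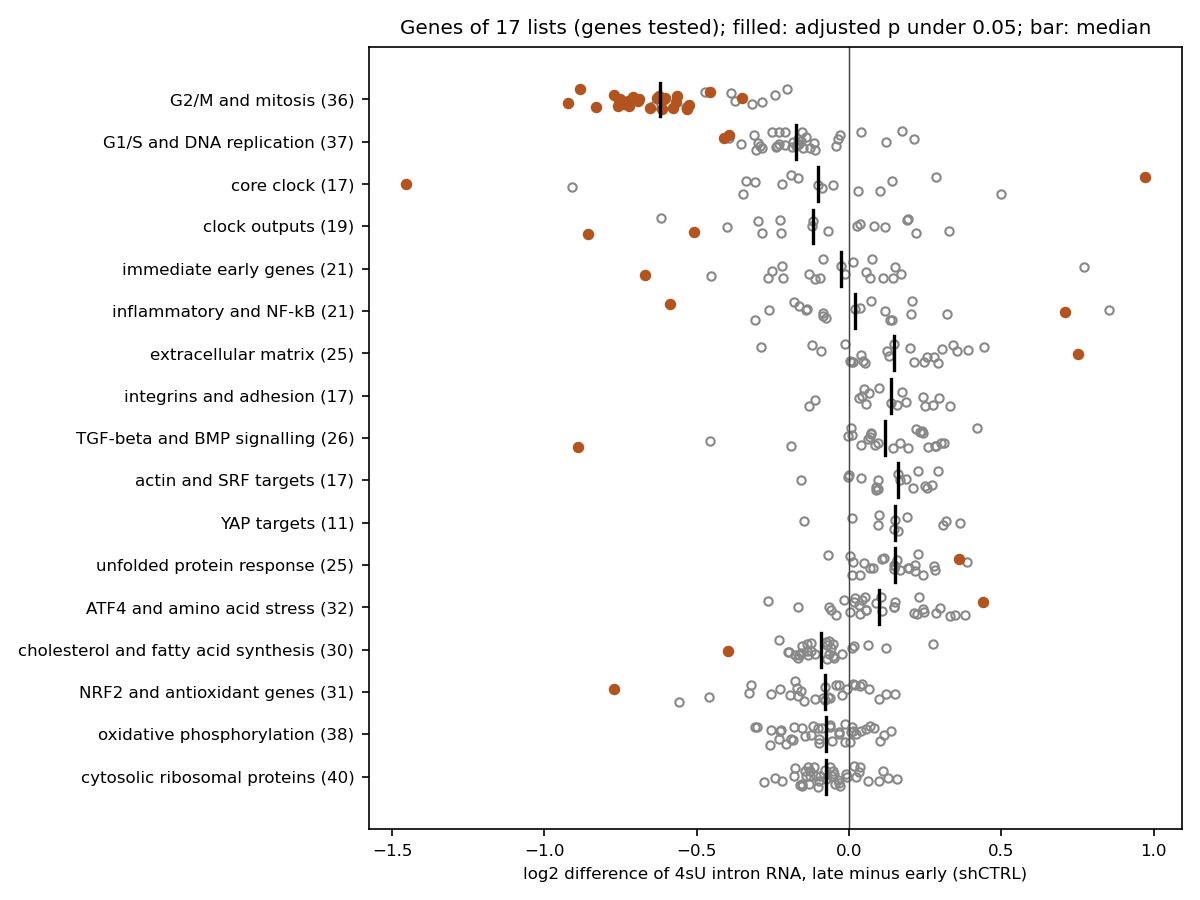
Log2 difference of 4sU intron RNA, late minus early in shCTRL (horizontal axis), for the tested genes of 17 lists (number tested in parentheses). Each circle is a gene, filled where its limma adjusted p was under 0.05, and bars are medians. The G2/M list lies wholly below 0 with a median of -0.62, while the medians of the other lists lie between -0.17 and 0.16.

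Stress and metabolic lists held few calls. Sec24d, a coat protein of transport from the endoplasmic reticulum, was 0.604 to 0.661 RPKM early and 0.794 to 0.828 RPKM late (0.36 ± 0.0612, limma adjusted p = 0.0182) and was the only one of 25 genes of the unfolded protein response to pass. In this list 24 genes were above 0 (median 0.15). Phgdh, the first enzyme of serine synthesis, rose by 0.44 ± 0.0932 (adjusted p = 0.0430) as 1 of 32 genes of the ATF4 list. Nqo1, a quinone reductase, fell by 0.77 ± 0.146 (1 of 31 NRF2 and antioxidant genes) and Pmvk, of the mevalonate pathway, by 0.40 ± 0.0800 (1 of 30 lipid synthesis genes). Atf3, a stress-induced transcription factor, fell by 0.67 ± 0.114 as 1 of 21 immediate early genes, and the receptor Tlr2 by 0.59 ± 0.0935. Of the 21 inflammatory genes tested, Tlr2 fell, C3 rose and the others did not pass. Several of these calls depended on the settings: Phgdh passed in 9 of 20 alternatives (adjusted p up to 0.506), Pmvk in 9 of 20 (up to 0.242), Nqo1 in 10 of 19 (up to 0.119), Atf3 in 12 of 19 (up to 0.206) and Sec24d in 12 of 20 (up to 0.137). The calls of Phgdh, Pmvk, Nqo1, Atf3 and Sec24d were each lost when the library of 28 h, 42 h, 44 h or 46 h was left out. No gene of the p53 (25 tested), cytosolic ribosomal protein (40), oxidative phosphorylation (38), glycolysis and hypoxia (30), heat shock (25), mRNA decay (58), RNA polymerase II (52) or splicing (46) lists passed, and their medians lay between -0.09 and 0.10.

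Some of the named falls rested on few reads. Gm47958 (-1.53 ± 0.242) had 3 to 21 intron reads per library and Spryd4 (-1.03 ± 0.165) 13 to 41. For Spryd4, which overlaps Gls2 in the annotation, the total intron and total exon differences were -0.12 (limma adjusted p = 0.787) and 0.03 (adjusted p = 0.853). Pvrig (-0.79 ± 0.154) had 15 to 42 reads.

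The middle libraries, which took no part in choosing the genes, show how the changes were spread over time. For 66 of the 80 genes that rose the mean of 32 to 38 h lay between the window means, and for 14 it was beyond the late mean. For the 123 that fell these counts were 117 and 6, and for none of either set did the middle mean lie beyond the early one. The median position of the middle mean was 81.9% of the way from early to late in the genes that rose and 54.8% in those that fell. The middle mean thus lay nearer to the late mean in the rising set than in the falling set, which is a description with no test.

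Intron reads of total RNA, which come from separate libraries of the same cultures, were not used to choose the genes. Over all genes, 31 of 9970 rose (0.311%) and 73 fell (0.732%) in that layer. Of the 80 genes higher late in 4sU intron RNA, 75 could be tested and all 75 were above 0, against 49.4% of all genes tested in both. Their median log2 difference was 0.39, and 23 of them passed. Of the 123 lower genes, 112 could be tested and all 112 were below 0, against 50.6% of all genes tested in both. Their median was -0.50, and 45 passed. The shared genes made up 28.8% and 36.6% of the 4sU calls, and 74.2% and 62.5% of the total intron calls among genes tested in both. In the G2/M list 16 of 32 members fell in total intron RNA and 0 rose (median -0.55). Cry1 fell by 1.38 ± 0.172 (limma adjusted p = 0.00702), whereas Nr1d1 (0.65 ± 0.150, adjusted p = 0.0725) did not pass. The cultures are shared, so this repeats the library and not the culture.

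For RNA levels, read from exons of total RNA, more genes passed the test: 366 of 10861 rose (3.37%) and 494 fell (4.55%). On the RPKM as deposited these counts were 277 and 729. Of the genes called in 4sU intron RNA, 55 of the 80 also rose in level and 79 of the 123 also fell, and none was called in the opposite direction. These were 68.8% and 64.2% of the synthesis calls but 15.9% and 17.1% of the level calls among genes tested in both. Lox exon levels were 76.3, 67.6, 62.9 and 56.7 RPKM early and 127, 126, 119 and 119 RPKM late (log2 difference 0.90 ± 0.0762, limma adjusted p = 8.65e-05). They went down through the early window while its intron level stayed nearly even. Cry1 exon levels were 6.32, 9.21, 9.73 and 10.9 RPKM early and 2.33, 2.32, 2.99 and 3.47 RPKM late, all late values lying below all early ones (-1.66 ± 0.166, adjusted p = 0.000239). Nr1d1 exon levels spread over 24.0 to 116 RPKM early and 81.4 to 150 RPKM late, overlapped, and did not pass (1.45 ± 0.519, adjusted p = 0.154). In the matrix list, 12 of 24 genes rose in level and 1 fell, against 1 and 0 of 25 in synthesis. The medians of this list were both above 0, at 0.27 in level and 0.15 in synthesis, where 21 of 25 genes were above 0. Of the G2/M list 24 of 36 fell in level and 0 rose.

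**Figure D3:**
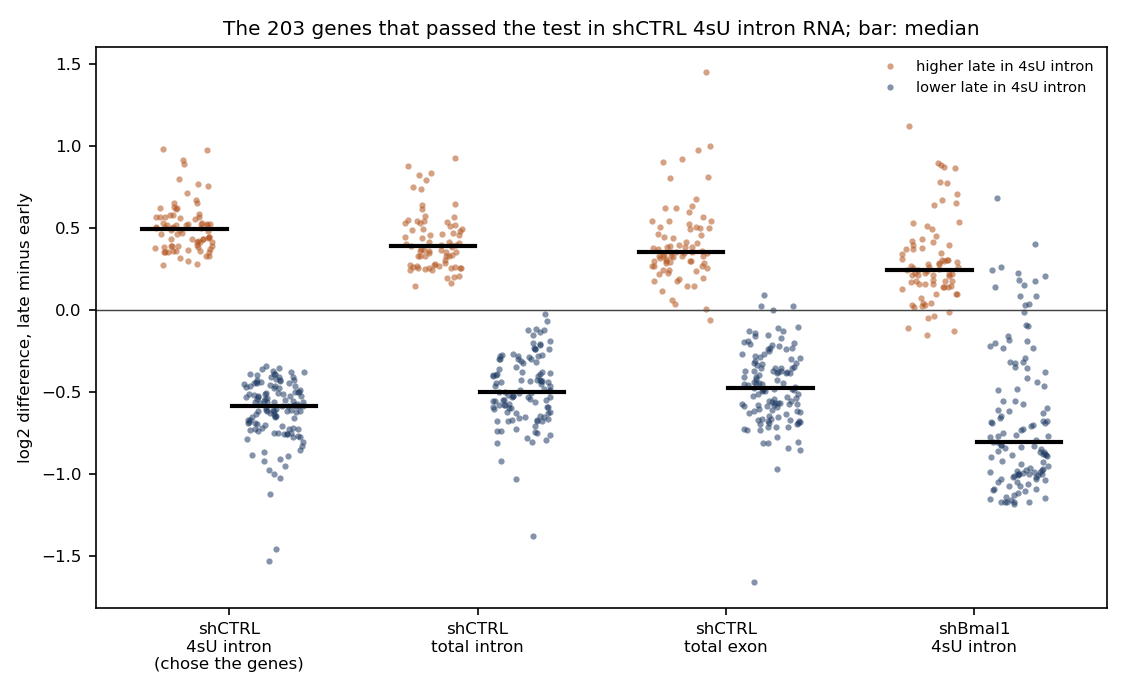
Log2 difference, late minus early, of the 203 genes that passed the test in shCTRL 4sU intron RNA (80 higher, orange, and 123 lower, blue), shown in that layer, in shCTRL total intron and total exon RNA and in shBmal1 4sU intron RNA. Each point is a gene and bars are medians; the first column chose the genes. The medians of the falling genes are -0.59, -0.50, -0.48 and -0.81 from left to right, and those of the rising genes 0.49, 0.39, 0.35 and 0.25.

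Whether synthesis and level changed by different amounts was tested directly, as the difference between 4sU intron and total exon log2 values of each culture. By limma 1 of 10408 genes passed (0.00961%), and 1058 had an unadjusted p under 0.05. This gene was Lbp, which encodes a lipopolysaccharide-binding protein. Its 4sU intron level was 0.118, 0.179, 0.198 and 0.236 RPKM early and 0.175, 0.158, 0.132 and 0.117 RPKM late, which overlap. Its exon level was 5.01 to 8.40 RPKM early and 10.0 to 11.7 RPKM late, wholly above. The difference of the changes was -1.06 ± 0.112 (adjusted p = 0.0171). For Lox it was -0.15 ± 0.122, for Cry1 0.20 ± 0.137 and for Ccnb1 -0.23 (adjusted p = 0.477), none of which passed; 0 to 2 genes passed with single libraries left out.

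The same windows were read in the shBmal1 line, whose libraries chose none of these genes. The 123 genes that fell in shCTRL had a median log2 difference of -0.81 there and 109 of them were below 0, against 47.0% of all genes. The 80 that rose had a median of 0.25, and 74 were above 0, against 52.9% of all genes. The G2/M list had a median of -0.98 in shBmal1. A test of the difference of the changes between the lines called 2 of 10653 genes (0.0188%) by limma, with 1037 at an unadjusted p under 0.05, and 0 of the 203 genes were among them.

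The called genes were Adamts14, a procollagen-processing protease, and Tmem140, a transmembrane protein whose locus overlaps Cyren. Adamts14 was 0.339 to 0.465 RPKM early and 0.280 to 0.337 RPKM late in shCTRL, against 0.234 to 0.264 and 0.386 to 0.528 RPKM in shBmal1. All late values thus lay below all early ones in the control line, by a narrow gap (0.337 against 0.339 RPKM), and above them in the other. The fall in shCTRL alone did not pass (-0.26 ± 0.107, limma adjusted p = 0.276). Only the difference of the changes was called, at 0.98 ± 0.154 (limma adjusted p = 0.0423). Tmem140 was 1.04 to 1.33 and 0.905 to 1.05 RPKM in shCTRL, with overlapping windows, and 0.424 to 0.499 and 0.663 to 0.851 RPKM in shBmal1 (0.89 ± 0.139, adjusted p = 0.0423). For Cry1 the late values in shBmal1 were 0.197, 0.209, 0.275 and 0.221 RPKM, all above the highest shCTRL late value, but the difference of the changes did not pass (1.13 ± 0.246, adjusted p = 0.0813). Nor did that of Nr1d1, which was 2.10 to 3.39 RPKM early and 3.09 to 3.45 RPKM late in shBmal1 (-0.68 ± 0.243, adjusted p = 0.350). The count is fragile: it was 0 with a block for the time point shared by the lines and 0 without limma's trend and robust steps, so that neither gene passed there. With single libraries left out it was 0 (without 26 h or any of the 4 late libraries of shCTRL, or 42 h or 44 h of shBmal1) to 26 (without 24 h of shBmal1).

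Gene length differed between the rising and the falling genes. The median span from start to end (RefSeq, GRCm38.p6) was 74303 bases for the 74 higher genes with a match, 17316 for 118 lower ones and 22601 for 10122 of all. With the genes split by span into 5 bins of equal size, the median log2 difference of all genes was -0.07, -0.05, -0.02, 0.03 and 0.11 from the shortest (455 to 8396 bases) to the longest (61991 to 1177441 bases). In that order 5, 8, 10, 12 and 39 genes rose, and 28, 26, 31, 30 and 3 fell. The bin of shortest genes stayed below 0 and that of the longest above 0 on each scaling (-0.11 to -0.05 and 0.08 to 0.13) and with each library left out (-0.10 to -0.01 and 0.07 to 0.15). The order among the shorter bins did not always hold. Without the 30 h library the first 3 bins were at -0.012, -0.023 and -0.018, and without the 44 h library the first 2 were at -0.033 and -0.035. With all libraries, the order from shortest to longest was the same in total intron RNA (-0.08 to 0.10), in total exon RNA (-0.04 to 0.08) and in shBmal1 4sU intron RNA (-0.03 to 0.07). Long genes that rose include Runx1t1, Tenm4, Maml3 and Macf1, named here after their values were seen, with log2 differences of 0.57, 0.42, 0.46 and 0.33. What sets this pattern was not tested.

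**Figure D4:**
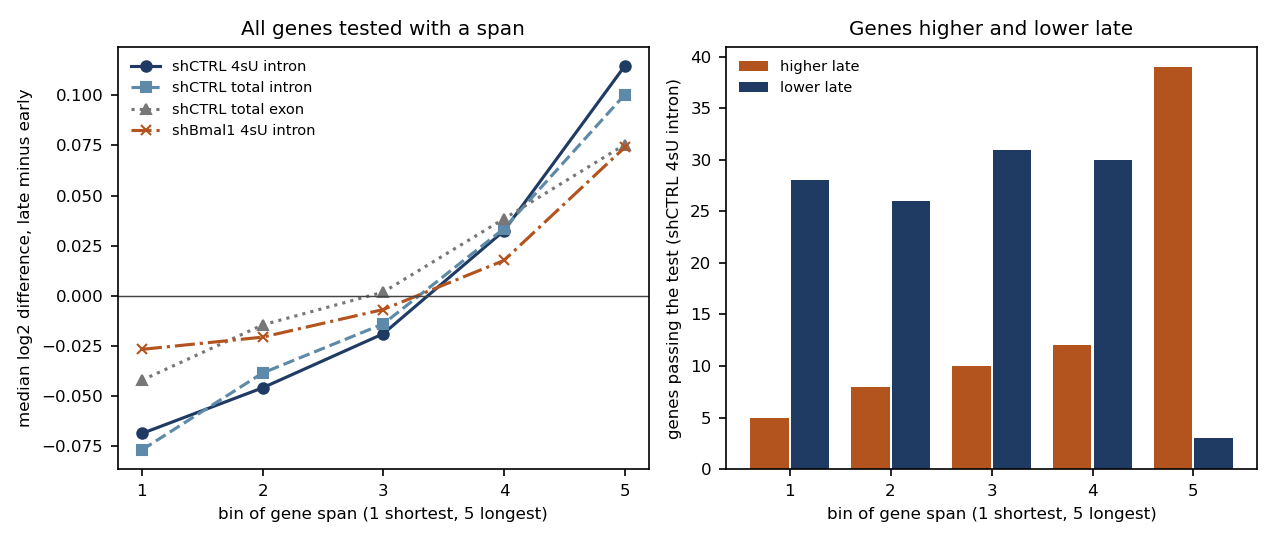
Left, median log2 difference, late minus early, of all genes with a span (vertical axis) by bin of gene span (horizontal axis, 1 shortest, 5 longest) in 4 sets of libraries. Right, number of genes per bin that passed the test in shCTRL 4sU intron RNA. The shCTRL 4sU median goes from -0.07 to 0.11, and 39 of the rising but 3 of the falling genes are in the bin of longest genes.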

How the data were processed

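The authors deposited RPKM for exons and introns of 11313 gene symbols in 48 libraries; per the submitters' processing notes, Trim Galore and HOMER 4.11.1 were used on mm10 (GRCm38.p6), with the aligner not given in the sources used here. Libraries were strand-specific per the labels' protocols, the use of strand in counting is not given, and spike-in values were not analysed here. Depth was recovered from the steps of the deposited RPKM of low genes, where values are whole multiples of 1 read.

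RPKM were scaled by the median ratio over the 24 libraries of each RNA type and put on the log2 scale with a pseudocount of 0.02 (intron) or 0.1 (exon), which understates changes of low genes. Exon rows needed a mean of 0.5 RPKM. Windows were compared with limma 3.58.1 (trend and robust variance, R 4.3.3), with p-values adjusted over all genes tested; the fit was tested on simulated data. Errors beside log2 differences are standard errors. Genes, lists and tests were chosen with earlier results of these data known. Named were the 12 largest and 12 smallest called differences with a mean of at least 0.2 RPKM and separate windows, the core clock, up to 2 called genes per list and direction, and the genes called in the tests of line and of synthesis against level; a few of these are not reported here. Alternatives were scaling, pseudocount, filter, variance model, libraries left out, other fits and narrower windows.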

Additional observations from a re-analysis of the deposited data

Results flagged for a closer look

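In 8 of the 106 windows looked at (53 named genes, early and late), 1 of the 4 libraries stood apart from the other 3 by more than Dixon's 95% limit allows; chance gives about 1 in 20. All values are scaled 4sU intron RPKM in shCTRL. In the late window, Gm15851 was lowest at 44 h (4.07 against 4.67 to 4.72), Adamts5 was highest at 44 h (1.00 against 0.796 to 0.825), Gm47958 was highest at 44 h (0.164 against 0.0650 to 0.0776) and Tsc22d3 was highest at 46 h (0.275 against 0.234 to 0.241). In the early window, Gm47958 was highest at 24 h (0.401 against 0.249 to 0.271), Ube2c was highest at 26 h (1.47 against 1.37 to 1.39), Wee1 was highest at 26 h (0.804 against 0.666 to 0.689) and Ckap2 was lowest at 30 h (0.466 against 0.602 to 0.629). The late minus early change differed between the lines by 0.98 (log2) for Adamts14 and by 0.89 for Tmem140, both with a limma adjusted p of 0.0423. Neither passed with a block for the time point or without limma's trend and robust steps.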

How the results depend on the processing

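The time points were single libraries, and 4 a window limit the precision of each count. With single libraries left out, 45 to 304 genes passed in 4sU intron RNA (14 to 138 higher, 30 to 166 lower), 445 to 1189 in total exon RNA, 26 to 135 in total intron RNA, 0 to 26 in the line difference and 0 to 2 in synthesis against level. In 4sU intron RNA the RPKM as deposited gave 30 higher genes, a filter 5 times higher gave 114 (48 higher, 66 lower; fewer genes tested), a fit with the middle libraries 408 (206 and 202) and windows of 26 to 30 h against 42 to 46 h 5 (2 and 3; fewer samples). A block for position within the window (24 h paired with 40 h and so on) gave 25 (5 and 20), of which 24 were shared with the main calls; deviations of these pairs correlated at -0.418 to 0.210, so the positions do not pair the libraries. Between the lines, deviations at a shared time point correlated at -0.190 to 0.506, the highest at 26 h, and the main line test had no block for it. The line difference gave 6 genes as deposited, 7 with upper quartile scaling, 5 with the higher filter, 0 without trend and robust variance and 0 with time point as a block. Synthesis against level gave 4, 5, 4 and 0 under the same first 4 settings, 10 with a pseudocount 5 times larger and 2 with no filter. Apart from fewer genes or samples, the cause was not tested.

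Of 35 named genes that passed, none changed sign. Their early and late values did not overlap, so leaving out a library, narrowing the windows or adding the position block could not change it. For these genes, 345 of 412 values under other settings and 190 of 280 with a library left out still passed. Clock genes that had not passed changed sign. With libraries left out in turn, Arntl ranged from -0.41 (24 h) to 0.26 (30 h; 0.09 without 44 h and 0.11 without 46 h), Per1 from -0.44 to 0.0175, Bhlhe40 from -0.32 to 0.0415 and Bhlhe41 from -0.37 to 0.038, the last 3 changing sign without the 40 h library. Windows of 26 to 30 h against 42 to 46 h gave 0.14 for Per1, 0.0636 for Per3, 0.145 for Bhlhe40, 0.0879 for Bhlhe41 and -0.0062 for Csnk1d. Windows of 24 to 28 h against 40 to 44 h gave 0.46 for Arntl, and the RPKM as deposited gave -0.0081 for Csnk1d.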
